A study of Homo sapiens with 12 samples.

Results

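Homologous recombination, the Fanconi anemia pathway and the kinases that signal DNA damage were followed through 37 genes in MM1S cells, a human multiple myeloma line of malignant plasma cells, during treatment with NGI-1. NGI-1 is a small molecule that inhibits the oligosaccharyltransferase (OST) complex, the enzyme that attaches N-glycans to proteins entering the endoplasmic reticulum. The genes were taken by symbol, all 37 were listed among the 59276 features of the series, and all 37 passed the filter that left 11939 features for testing (3 or more libraries at 1 TPM or above, where TPM is the length-corrected share of transcripts). The series held 12 libraries of total RNA in 4 groups of 3: untreated MM1S cells labelled day 0, and MM1S cells on day 2, day 3 and day 5 of 10 μM NGI-1. The labels gave NGI-1 as the treatment of the day 0 libraries as well, and these were taken as untreated because the study calls them so. All groups were the same single cell line, and no untreated culture of a later day was analysed here, so NGI-1 and time in culture cannot be told apart. The labels do not say whether libraries of a group came from separate cultures, so the p-values measure only the spread between these libraries, which may be technical.

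Homologous recombination repairs a broken chromosome by copying the sister chromatid. The MRE11-RAD50-NBN (MRN) complex and its partners trim the ends, BRCA1, PALB2 and BRCA2 prepare the single strand for the search for a partner, and BLM with its partners takes the joined molecules apart. The Fanconi core complex marks FANCD2 and FANCI with ubiquitin at DNA crosslinks, while ATM with CHEK2 and ATR with CHEK1 pass the damage signal to the cell cycle. Several of these genes are known to be transcribed mostly in S and G2 phase, and myeloma cells are known for a heavy load of chromosome rearrangements.

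The libraries had 18164 to 20407 features above 0. The deposited values were TPM on a log scale. A minimum number of read pairs, the same for each library, was recorded, but not the reads counted behind each value. None of the 8 plasma cell markers was at 0 in any group. They summed to 3265-3449 TPM in untreated libraries, 3974-4037 on day 2, 3525-3645 on day 3 and 3002-3337 on day 5, but single markers moved in opposite directions: TNFRSF17 (BCMA) had a mean of 577 TPM untreated and 2087 on day 5, and XBP1 1547 and 366. The T cell, myeloid, erythroid and stromal lists reached no more than 7.23 TPM in any library. TPM is a share of the RNA in a library: in these bulk samples fewer cells of a type and less RNA per cell cannot be told apart. The shares themselves shifted, since the median log2 change of all tested features was -0.18 on day 2, -0.73 on day 3 and -0.99 on day 5. Changes were therefore also computed after each library was rescaled to the same median, using 5433 features with a mean of at least 10 TPM, and both versions are given below.

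Most members were at a lower level at every time point, and CHEK1, EXO1 and FANCI had the lowest changes on days 3 and 5. A member was called lower or higher when its limma adjusted p was below 0.05 and its log2 fold change of TPM + 1 was beyond 0.5. On day 2, 30 of 37 members were lower and 0 higher, where 23.2% of all tested features were lower and 8.04% higher. After rescaling 28 members were lower and 0 higher, where 11.4% of all features were lower and 12.9% higher. On day 3, 36 members were lower, against 61.5% of all features lower and 7.59% higher. Rescaled, 28 were lower on day 3, against 24.2% of features lower and 23.9% higher. By day 5 all 37 were lower, where 69.8% of features were lower and 7.73% higher, and 27 after rescaling, where 26.9% were lower and 27.5% higher. Of the members not lower, ATM on day 2 was the 1 with a positive change on the deposited scale (0.15, limma adjusted p = 0.413). After rescaling ATM (0.41, limma adjusted p = 0.0219) and NBN (0.27, limma adjusted p = 0.0199) were positive on day 3 within the fold limit of 0.5. The count on the deposited scale thus stood closer to its background on day 5 than on day 2. The same shares of all features are the background of the role group and gene list counts below. BRCA2, FANCB and BRIP1 reached 1 TPM in fewer than 3 treated libraries, so they passed the filter through their untreated level and had to differ.

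The median member changed by -1.29 (log2) on day 2, -2.18 on day 3 and -2.23 on day 5, and by -1.03, -1.52 and -1.58 after rescaling. As a share of untreated TPM on the deposited scale, the median member kept 32.7% on day 2, 14.0% on day 3 and 9.86% on day 5. The range over members was wide, from 15.5% to 112% on day 2 and from 0.275% (EXO1) to 54.3% (ATM) on day 5. On day 2, 24 members were among the lowest 5% of all tested features by log2 fold change, with 22 on day 3 and 16 on day 5. In 35 members the highest day 2 library was below the lowest untreated library, where 44.1% of all features showed this. The same held for 37 members on day 3 (70.5% of features) and for 37 on day 5 (75.2% of features). Summed over the 37 members, the level was 828-877 TPM in untreated libraries, 350-370 on day 2, 193-201 on day 3 and 141-155 on day 5, and no ranges of these groups overlapped.

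**Figure D1:**
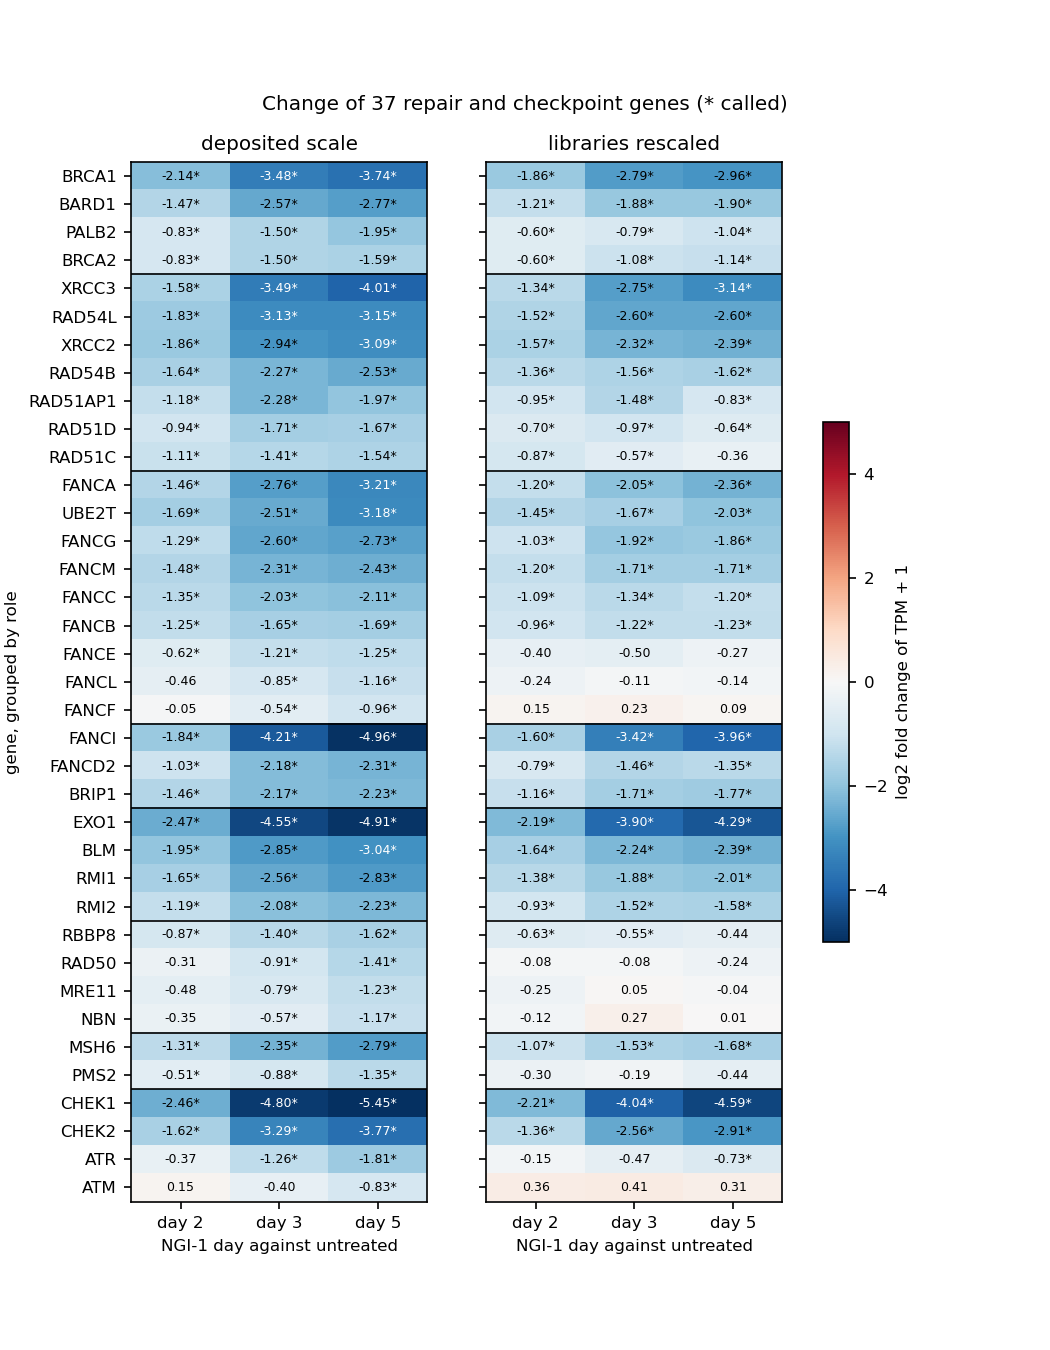
Log2 fold change of TPM + 1 on each NGI-1 day (columns) against untreated cells for the 37 genes (rows, lines separate roles), on the deposited scale at left and after rescaling at right, n = 3 libraries per group, with an asterisk at called values and colours ending at 5 in either direction. CHEK1, EXO1 and FANCI are darkest on days 3 and 5 in both panels, while FANCF, MRE11, NBN and ATM are near 0 or above it at right.

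**Figure D2:**
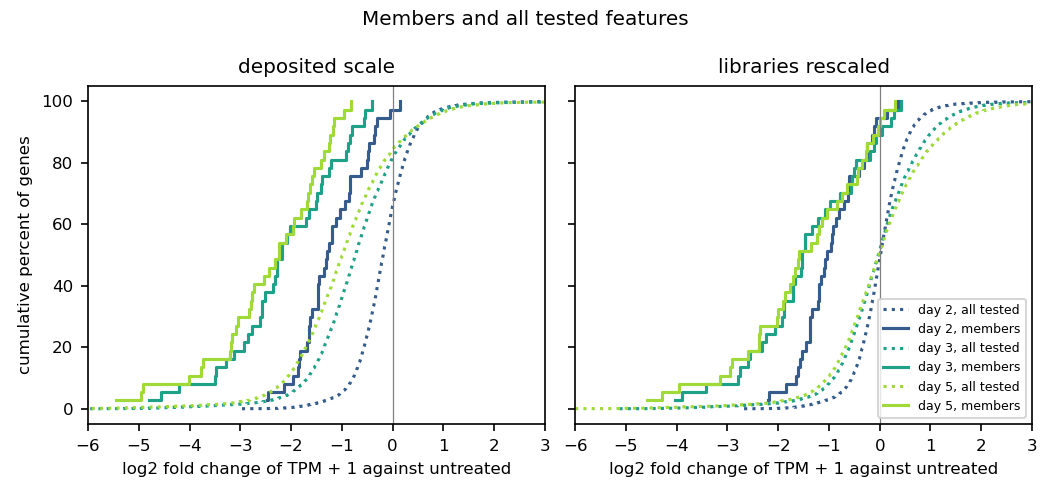
Cumulative percent of genes (vertical axis) at or below each log2 fold change of TPM + 1 against untreated cells (horizontal axis), for the 37 genes (solid) and all 11939 tested features (dotted) on 3 days. Over most of their length the solid lines lie left of the dotted line of the same day, with members' medians of -2.23 on day 5 at left and -1.58 after rescaling at right.

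Calls under both scalings split the members. On all 3 days 26 members were lower under both, where 9.64% of all tested features were. They ranged from all of the BRCA genes and their partners to CHEK1 and CHEK2. The 26 include BRCA2, FANCB and BRIP1, which passed the filter through their untreated level and had to differ. RAD51C, RBBP8 and ATR were lower under both on some days only. FANCE, FANCF, FANCL, MRE11, RAD50, NBN, PMS2 and ATM were lower under both on no day. The shares of all tested features lower under both on some days only or on no day were not computed. The members named for these states are therefore a description only. These 8 genes include the whole end-sensing MRN complex and ATM, the kinase that it activates.

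The promoters of these genes were read for letters known from cell cycle genes. E2F factors drive S phase genes, the CHR element is bound by a complex that represses cell cycle genes in resting cells, and the CCAAT box is bound by NF-Y. RefSeq promoters (GRCh38.p14, 250 bases before to 50 after the start) matched 33 of 37 members in 48 windows. An E2F core was taken as the letters TTTGGCG on either strand, and the related spelling TTTCCCG or the third spelling TTTCGCG counted as well. It stood in 11 of 48 member windows, or 22.9%, and in 7.21% of all 35116 windows of that length. The CHR letters TTTGAA stood in 4 member windows (8.33%) against 15.2% of all windows. CCAAT stood in 23 (47.9%) against 34.6%. The windows with a match belong to 10 members for the E2F core, 4 for CHR and 18 for CCAAT. Windows of 1 gene can overlap, so 1 site can be counted in several windows, as the CHEK1 CCAAT box was. Each motif was counted on its own, whether or not it overlapped another. A match describes letters only, and no binding was measured. The exon-free stretches below, written 5′ to 3′ on the gene's strand with matches in capitals, are shown for 4 genes that were lower under both scalings on all days (UBE2T, XRCC3, CHEK1, BRCA1) and for 3 that were not (ATR, PMS2, RAD50). They lie at chr1:202341995-202342099 (minus strand), chr14:103715505-103715677 (minus), chr11:125626114-125626138 (plus), chr17:43125525-43125549 (minus), chr3:142578927-142578953 (minus), chr7:6009167-6009236 (minus) and chr5:132556914-132556937 (plus).
UBE2T: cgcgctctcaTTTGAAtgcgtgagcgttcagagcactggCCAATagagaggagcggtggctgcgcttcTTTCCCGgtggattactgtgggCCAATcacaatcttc
XRCC3: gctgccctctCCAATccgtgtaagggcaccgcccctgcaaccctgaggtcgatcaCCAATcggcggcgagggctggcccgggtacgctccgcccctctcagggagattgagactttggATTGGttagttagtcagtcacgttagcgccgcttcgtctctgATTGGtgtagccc
CHEK1: agcgcaggggATTGGagagactcct
BRCA1: gactgggtggCCAATccagagcccc
ATR: tgacgcgaccCGGGAAActtgaccgac
PMS2: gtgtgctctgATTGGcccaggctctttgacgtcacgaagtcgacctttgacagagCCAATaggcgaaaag
RAD50: gggactctgaTTTCCCGgcgtgcc
Only stretches with a match were kept for display, so that both sets hold matches follows from the selection. UBE2T has an E2F core, the CHR letters and 2 CCAAT boxes within 105 bases, and XRCC3 has 4 CCAAT boxes within 173 bases. Over whole windows an E2F core stood in ATR, FANCF, PMS2 and RAD50, none of them lower under both scalings on all days. It also stood in EXO1, FANCC, FANCD2, MSH6, UBE2T and XRCC2, which were. The core of PMS2 lies outside the stretch shown. A link between motif and change was not tested.

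Among the BRCA genes and their partners all 4 were lower on each day under both scalings, with medians of -1.15, -2.04 and -2.36. BRCA1, on chromosome 17 (43044295-43170245, hg38, minus strand), encodes the ubiquitin ligase that steers breaks into recombination. BRCA1 stood at 19.6, 18.6 and 17.8 TPM in untreated libraries, 3.76, 3.31 and 3.34 on day 2, 0.765, 0.640 and 0.909 on day 3, and 0.339, 0.548 and 0.544 on day 5. Every group lay apart from the one before it. Its log2 change was -2.14 on day 2 (SE 0.12) and -3.74 on day 5 (limma adjusted p = 7.18e-12, -2.96 rescaled). BARD1, the ligase partner of BRCA1, fell by 2.77 on the log2 scale by day 5, and PALB2, which joins BRCA1 to BRCA2, fell by 1.95.

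BRCA2, a tumour suppressor that acts after resection, had the lowest untreated mean of all members. BRCA2 stood at 2.90, 2.51 and 1.63 TPM in untreated libraries, 0.752, 1.28 and 0.617 on day 2, 0.126, 0.188 and 0.183 on day 3, and 0.0995, 0.0844 and 0.112 on day 5. No groups overlapped, although the untreated libraries themselves were spread out. The log2 change of -1.59 on day 5 was the smallest of the 4, because 1 was added to each TPM. As a share of untreated TPM BRCA2 kept 4.20% and PALB2 16.7%. BRCA2 passed the filter through its untreated level and had to differ, so its calls are given as description only.

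The 7 genes of strand exchange (RAD51AP1, RAD51C, RAD51D, XRCC2, XRCC3, RAD54L and RAD54B) were all lower on each day (medians -1.58, -2.28 and -2.53), and all but RAD51C on day 5 after rescaling. They comprise paralogs that act in complexes with each other, the motor proteins RAD54L and RAD54B, and RAD51AP1, which helps the strands to pair. XRCC3 had the lowest day 5 change of the group. It stood at 28.4, 27.0 and 27.7 TPM in untreated libraries, 9.92, 8.11 and 7.81 on day 2, 2.11, 1.05 and 1.60 on day 3, and 0.402, 1.26 and 0.791 on day 5. Days 3 and 5 overlapped, and the day 5 change was -4.01 (SE 0.18, limma adjusted p = 2.27e-10, -3.14 rescaled).

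RAD51C, the paralog shared by both paralog complexes, had the highest day 5 change. It stood at 47.97, 46.1 and 53.8 TPM in untreated libraries, 24.8, 18.0 and 24.9 on day 2, 18.5, 16.0 and 19.3 on day 3, and 15.9, 17.6 and 15.4 on day 5. Day 2 overlapped with day 3 and day 3 with day 5, and the untreated libraries were above all treated ones. The day 5 change was -1.54 (SE 0.13, limma adjusted p = 7.31e-08), but -0.36 after rescaling (limma adjusted p = 0.0579), which is not called. RAD54L kept 0.690% of its untreated TPM on day 5, XRCC2 3.17%, RAD54B 10.2%, RAD51AP1 23.2%, RAD51D 25.8% and RAD51C 33.0%.

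The Fanconi core complex and its ubiquitin-conjugating enzyme UBE2T divided. Of 9 genes, 7 were lower on day 2 and 9 on days 3 and 5 (medians -1.29, -2.03 and -2.11), with 6 on each day after rescaling. FANCA, on chromosome 16 (89737549-89816657, minus strand), builds a subcomplex with FANCG. FANCA stood at 15.5, 15.1 and 13.8 TPM in untreated libraries, 4.18, 4.63 and 5.53 on day 2, 1.36, 1.498 and 1.15 on day 3, and 0.752, 0.771 and 0.613 on day 5. No groups overlapped, and the day 5 change was -3.21 (SE 0.13, limma adjusted p = 4.63e-11, -2.36 rescaled). UBE2T changed by -3.18 on day 5, FANCG by -2.73, FANCM, a helicase that anchors the complex to DNA, by -2.43, FANCC by -2.11 and FANCB by -1.69. FANCB kept 3.76% of its untreated TPM on day 5, the lowest share of the group, so the log2 value understates its loss. FANCB passed the filter through its untreated level and had to differ, so its calls are given as description only.

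FANCF, an adaptor within the complex, had the highest day 5 change of the group. It stood at 9.56, 9.36 and 9.98 TPM in untreated libraries, 9.90, 8.998 and 8.84 on day 2, 6.20, 7.28 and 5.57 on day 3, and 3.62, 3.96 and 6.05 on day 5. Untreated and day 2 libraries overlapped, as did those of days 3 and 5. The changes were -0.05, -0.54 and -0.96 on the deposited scale and 0.15, 0.23 and 0.09 after rescaling, so the direction depends on the scaling. The day 3 call was lost without day 3 replicate 3 (-0.46). FANCL, the ubiquitin ligase, changed by -0.46, -0.85 and -1.16 on the 3 days (-0.24, -0.11 and -0.14 rescaled), and FANCE by -0.62, -1.21 and -1.25 (-0.40, -0.50 and -0.27). FANCL was called on day 2 without untreated replicate 1 (-0.56) or without day 2 replicate 3 (-0.53).

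FANCD2, FANCI and BRIP1 were lower on each day under both scalings (medians -1.46, -2.18 and -2.31). FANCD2 and FANCI form the clamp that the core complex marks. FANCD2 stood at 13.4, 12.7 and 10.9 TPM in untreated libraries, 5.68, 6.26 and 4.62 on day 2, 1.99, 2.45 and 1.42 on day 3, and 1.75, 1.40 and 1.88 on day 5. FANCI, on chromosome 15 (89243949-89317261, plus strand), stood at 86.0, 81.9 and 73.6 TPM in untreated libraries, 21.4, 21.5 and 22.1 on day 2, 2.63, 4.52 and 3.21 on day 3, and 1.06, 2.23 and 1.69 on day 5. FANCD2 overlapped between days 3 and 5 and FANCI did not. By day 5 FANCI had changed by -4.96 (SE 0.17, limma adjusted p = 1.31e-11) and FANCD2 by -2.31 (SE 0.16, limma adjusted p = 8.98e-09). BRIP1, a helicase that binds BRCA1, stood at 4.07, 3.76 and 3.64 TPM in untreated libraries, 0.682, 0.676 and 0.909 on day 2, 0.0693, 0.0698 and 0.0702 on day 3, and 0.0127, 0.0266 and 0.0394 on day 5. It changed by -2.23 on day 5 and kept 0.685% of its untreated TPM, so the log2 value understates its loss. BRIP1 also passed the filter through its untreated level, so its calls are given as description only.

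BLM, RMI1, RMI2 and the resection nuclease EXO1 were all lower on each day under both scalings, with medians of -1.80, -2.70 and -2.94. BLM, RMI1 and RMI2 belong to the dissolvasome, which separates joined chromatids. EXO1, on chromosome 1 (241847967-241895148, plus strand), stood at 30.6, 34.5 and 29.9 TPM in untreated libraries, 5.14, 4.57 and 4.98 on day 2, 0.240, 0.367 and 0.579 on day 3, and 0.0316, 0.147 and 0.0831 on day 5. No groups overlapped. The change was -2.47 on day 2, -4.55 on day 3 and -4.91 on day 5 (SE 0.13, limma adjusted p = 8.01e-13, -4.29 rescaled). RMI2 had the highest day 5 change of the 4, at 4.33, 6.70 and 4.69 TPM in untreated libraries, 1.73, 1.99 and 1.42 on day 2, 0.481, 0.602 and 0.290 on day 3, and 0.268, 0.340 and 0.325 on day 5. Its change was -2.23 on day 5, with days 3 and 5 overlapping.

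The genes that begin resection changed less. Of MRE11, RAD50, NBN and RBBP8, 1 was lower on day 2 and 4 on days 3 and 5 (medians -0.41, -0.85 and -1.32), with 1, 1 and 0 after rescaling. RBBP8 encodes CtIP, which activates the MRE11 nuclease. RBBP8 stood at 57.5, 63.4 and 56.3 TPM in untreated libraries, 27.8, 30.8 and 37.9 on day 2, 22.9, 20.3 and 22.2 on day 3, and 19.6, 17.9 and 17.9 on day 5. NBN, which brings ATM to the break, stood at 35.3, 41.9 and 37.3 TPM in untreated libraries, 30.8, 26.5 and 32.1 on day 2, 25.2, 26.3 and 24.6 on day 3, and 15.0, 16.1 and 18.1 on day 5. In both genes each group lay below the one before it.

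On day 5 RBBP8 changed by -1.62 (limma adjusted p = 1.16e-08, -0.44 rescaled) and NBN by -1.17 (limma adjusted p = 1.70e-07, 0.0062 rescaled). On day 3 the change of NBN was -0.57 on the deposited scale and 0.27 after rescaling. MRE11, the nuclease, changed by -0.48, -0.79 and -1.23 (-0.25, 0.05 and -0.04 rescaled), and RAD50, the clamp that ties the ends, by -0.31, -0.91 and -1.41 (-0.08, -0.08 and -0.24). The direction of NBN and MRE11 thus turned with the scaling. MRE11 was called on day 2 without day 2 replicate 1 (-0.57).

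Of the mismatch repair genes, MSH6 recognises mispaired bases and PMS2 cuts the strand to be replaced. MSH6 stood at 42.4, 42.8 and 40.6 TPM in untreated libraries, 16.2, 16.5 and 16.3 on day 2, 6.95, 8.46 and 6.92 on day 3, and 4.56, 4.27 and 7.06 on day 5. It changed by -1.31, -2.35 and -2.79 (limma adjusted p = 6.99e-10 on day 5) and by -1.68 on day 5 after rescaling. PMS2 stood at 5.94, 6.06 and 5.23 TPM in untreated libraries, 3.25, 4.56 and 3.46 on day 2, 2.38, 3.18 and 2.48 on day 3, and 1.57, 1.63 and 1.71 on day 5. No PMS2 groups overlapped, and the changes were -0.51, -0.88 and -1.35 (-0.30, -0.19 and -0.44 rescaled). The day 2 call of PMS2 was lost without untreated replicate 1 (-0.49) or replicate 2 (-0.48) and without day 2 replicate 1 (-0.44) or replicate 3 (-0.47). PMS2 has many near-identical pseudogene copies, of which 8 were tested and PMS2P1 stood highest at 41.0 TPM untreated and 21.4 TPM on day 5, so its reads may be shared and its level is uncertain. The other 13 features named after a member as pseudogene or antisense gene stayed under 1 TPM in every library.

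The checkpoint kinases spanned the whole range. Of 4 kinases, 2 were lower on day 2, 3 on day 3 and 4 on day 5 (medians -0.995, -2.27 and -2.79), with 2, 2 and 3 after rescaling. CHEK1, on chromosome 11 (125625136-125676255, plus strand), encodes the kinase that holds replication and mitosis while ATR is active. CHEK1 stood at 74.2, 76.0 and 76.1 TPM in untreated libraries, 12.02, 13.7 and 13.1 on day 2, 1.74, 2.40 and 1.23 on day 3, and 0.353, 0.943 and 1.03 on day 5. No groups overlapped. Its changes were -2.46, -4.80 and -5.45 (SE 0.17, limma adjusted p = 5.67e-12 on day 5), and -4.59 on day 5 after rescaling. CHEK2, the effector of ATM, changed by -1.62, -3.29 and -3.77.

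ATM and ATR, the kinases upstream, changed less. ATM, on chromosome 11 (108222484-108369102, plus strand), stood at 17.6, 18.4 and 16.0 TPM in untreated libraries, 21.1, 20.02 and 17.0 on day 2, 11.4, 12.5 and 14.9 on day 3, and 9.88, 7.55 and 10.8 on day 5. Untreated and day 2 libraries overlapped, and the later groups lay below. The changes of ATM were 0.15, -0.40 and -0.83 on the deposited scale (limma adjusted p = 8.24e-05 on day 5) and 0.36, 0.41 and 0.31 after rescaling, so the direction on days 3 and 5 turned with the scaling. Without day 3 replicate 3 the day 3 change was -0.50 and was called.

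ATR stood at 16.0, 17.5 and 15.8 TPM in untreated libraries, 12.4, 11.9 and 13.0 on day 2, 5.78, 7.20 and 5.93 on day 3, and 3.55, 3.49 and 4.99 on day 5. No groups overlapped. The changes of ATR were -0.37, -1.26 and -1.81 (limma adjusted p = 1.85e-08 on day 5), and on day 5 it was also lower after rescaling (-0.73, limma adjusted p = 1.20e-05).

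**Figure D3:**
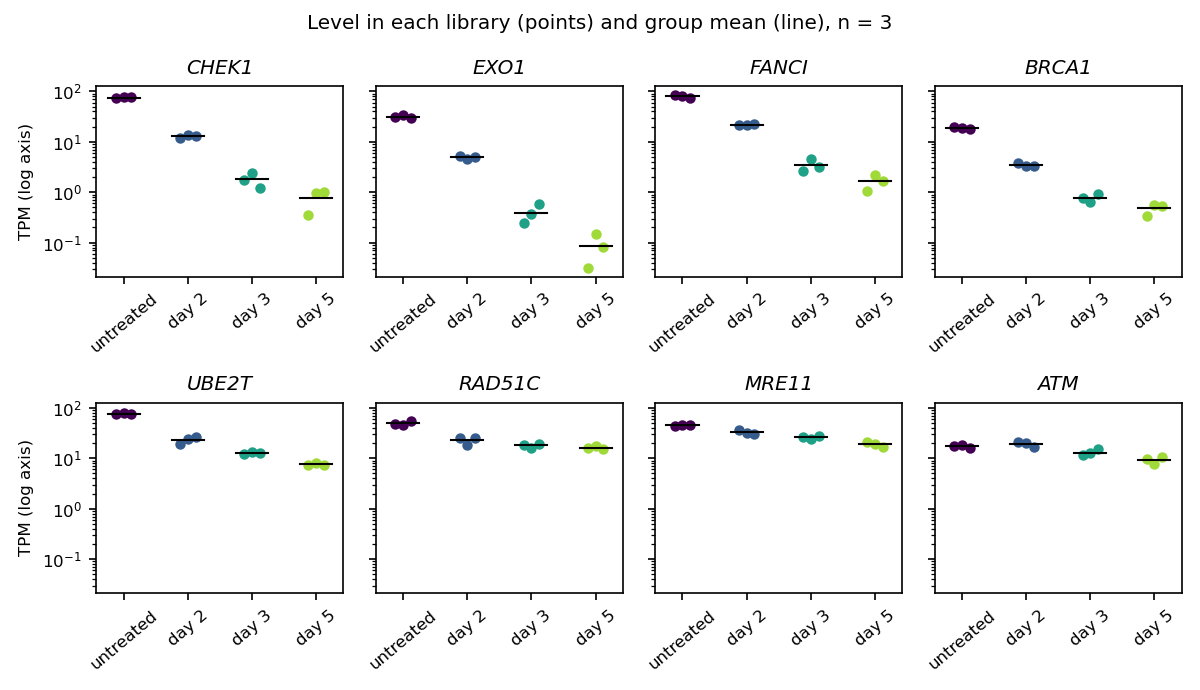
TPM on a log axis (vertical) in each library (points) with the group mean (line, n = 3) for 8 of the genes in untreated cells and on days 2, 3 and 5 (horizontal). CHEK1 goes from 74.2-76.1 to 0.353-1.03 TPM and EXO1 from 29.9-34.5 to 0.0316-0.147 TPM, while the lowest day 5 library of ATM is at 7.55 TPM.

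The order of the levels also changed. In untreated libraries FANCI (80.5 ± 6.31 TPM, SD, n = 3), UBE2T (76.5 ± 1.94) and CHEK1 (75.4 ± 1.09) stood highest, and the libraries of these 3 overlapped. BRCA2 (2.35 ± 0.651), FANCB (2.53 ± 0.129) and BRIP1 (3.83 ± 0.222) stood lowest. On day 5 the highest were MRE11 (19.0 ± 2.37), RBBP8 (18.5 ± 0.997), NBN (16.4 ± 1.57) and RAD51C (16.3 ± 1.16). The libraries of MRE11 overlapped those of the other 3 there, while those of RBBP8 and RAD51C lay apart. At that time 11 members were under 1 TPM in all 3 libraries, among them BRCA1, BRCA2, BLM and EXO1. In all, 19 members kept under 10% of their untreated TPM on day 5 on the deposited scale, and 9 kept over 30%. After rescaling 12 kept under 10%, and 3 kept over 100% (FANCF, NBN and ATM). The shares of all tested features at these limits of level and of TPM kept were not computed. These counts therefore describe the members only.

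Ratios of functional partners within a library do not depend on the scaling. The pairs were chosen after their values were seen, so the ratios are a description with no test. CHEK1 over ATR went from 4.35-4.83 in untreated libraries to 0.973-1.14 on day 2, 0.208-0.334 on day 3 and 0.0993-0.270 on day 5. CHEK2 over ATM went from 1.18-1.53 to 0.0466-0.124 on day 5. Each kinase pair thus changed from an excess of the effector to an excess of the upstream kinase in every library of day 5. FANCI over FANCD2 went from 6.42-6.76 to 0.602-1.59 and UBE2T over FANCL from 7.98-10.95 to 2.23-2.58. Within the paralog complexes, RAD51C over XRCC3 went from 1.69-1.94 to 14.0-39.5, and RAD51D over XRCC2 from 0.952-1.28 to 8.30-9.83. BRCA1 over BARD1 (1.43-1.55 to 0.448-0.542) and BLM over RMI1 (0.722-0.842 to 0.214-0.400) moved less. These are ratios of RNA levels, and protein was not measured here.

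**Figure D4:**
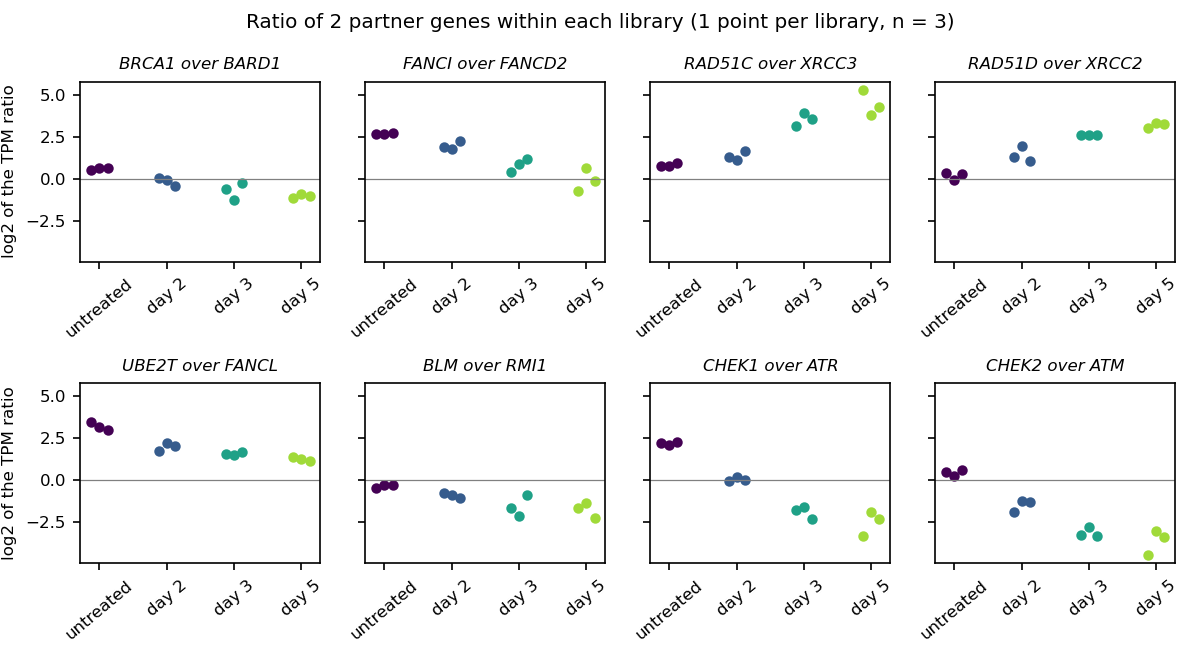
Log2 of the TPM ratio of 2 partner genes within each library (vertical, 1 point per library, n = 3 per group) in untreated cells and on days 2, 3 and 5 (horizontal) for 8 pairs, with a line at equal levels. CHEK1 over ATR and CHEK2 over ATM lie above the line in untreated libraries and below it on day 5, while RAD51C over XRCC3 rises to 14.0-39.5 as a plain ratio.

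Between day 2 and day 3 most members were lower again. Of 37, 30 were lower on day 3 than on day 2, where 55.5% of all features were, and 18 after rescaling, where 13.6% were. The median was -0.84 (-0.48 rescaled) beside -0.57 for all features. FANCI had the lowest step at -2.37 (limma adjusted p = 2.59e-07, -1.81 rescaled). NBN had the highest step at -0.22 (limma adjusted p = 0.0771), which was 0.39 after rescaling and in neither case called. RAD51C, FANCB, FANCF, FANCL, MRE11 and PMS2 were the other members not called. Of the members called, RBBP8 (-0.53), ATM (-0.55) and RAD50 (-0.61) turned after rescaling (0.080, 0.048 and 0.0020).

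Between day 3 and day 5 few members were called. The members kept 22.0% to 127% of their day 3 TPM, with a median of 69.9%. At low levels the added 1 held falls under the fold limit. EXO1 went from 0.240-0.579 to 0.0316-0.147 TPM and was not called. CHEK1, FANCI, ATR, NBN and UBE2T were lower, 5 of 37 where 13.1% of all features were. After rescaling 2 were lower (CHEK1 at -0.55 and FANCI at -0.55), where 2.03% of features were. FANCI had the lowest step at -0.75 (limma adjusted p = 0.00714), a call that was lost when only the 2 groups were fitted. That fit called 2 members lower, and a pseudocount of 0.1 called 15. RAD51AP1 had the highest, at 0.31 (limma adjusted p = 0.132), and was the 1 member called higher after rescaling (0.64, limma adjusted p = 0.0294), where 4.43% of features were. The count of lower members was 8 without day 3 replicate 1, 9 without day 3 replicate 3 and 10 without day 5 replicate 3. Both steps share the day 3 libraries, and the difference between them was not tested.

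The other repair genes gave a mixed picture. The 74 tested genes were of recombination, crosslink and mismatch repair, end joining and replication stress. Of these, 43, 62 and 67 were lower on days 2, 3 and 5, and 0, 1 and 2 were higher. Of all tested features 23.2%, 61.5% and 69.8% were lower and 8.04%, 7.59% and 7.73% higher. The medians of the 74 genes were -0.63, -1.37 and -1.58. After rescaling 35, 41 and 40 were lower and 2, 7 and 7 higher. Of all features 11.4%, 24.2% and 26.9% were then lower and 12.9%, 23.9% and 27.5% higher. RAD51B, the remaining partner of RAD51C, RAD51D and XRCC2, changed by -0.61 on day 5 and by 0.15 after rescaling. ABRAXAS1, a scaffold of the complex that holds BRCA1 at ubiquitin marks, had the highest day 5 change, from 10.9, 11.8 and 9.08 TPM to 24.1, 24.3 and 22.1 TPM (1.09, limma adjusted p = 1.38e-06). XRCC4, of end joining, was the other gene called higher on day 5 (0.90, limma adjusted p = 3.54e-06), from 11.3, 13.5 and 13.3 TPM to 23.6, 23.0 and 26.6 TPM.

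Proliferation genes were also lower, without the division seen among the members. All 20 listed replication and mitosis genes were lower on each day under both scalings, with medians of -1.86, -4.53 and -5.30. Their summed level was 2131-2212 TPM in untreated libraries, 573-605 on day 2, 89.7-111 on day 3 and 51.8-61.9 on day 5. RRM2, a subunit of ribonucleotide reductase, had the lowest day 5 change at -7.67, and MCM6, of the replicative helicase, the highest at -3.19. On days 3 and 5 the median of the 37 members was less negative than that of the proliferation genes (-2.18 beside -4.53, and -2.23 beside -5.30). The part of proliferation in the members' change was not tested.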

How the data were processed

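Total RNA of MM1S cells was sequenced in 12 libraries, 3 for each of 4 groups, from 200 ng of RNA each per the labels. The table deposited by the authors holds log2(TPM + 1) for 59276 features, and the submitters' processing notes name FastQC, Trimmomatic, STAR, Salmon and hg38 without versions or order. Groups were taken from the time point labels. The 11939 features that reached 1 TPM in 3 or more libraries were fitted in limma 3.58.1 (R 4.3.3) with 1 mean per group over all 12 libraries, a moderated variance with a mean-variance trend, and Benjamini-Hochberg adjustment over all tested features. Fold changes are on the log2(TPM + 1) scale, which understates the change of genes at low levels. No counts were given, so no count model, counting interval or detection floor was computed. Percentages of TPM left are ratios of group means of TPM, on the deposited scale unless given as rescaled. For the rescaled version, each library was shifted so that its median difference from the row mean was 0, over the 5433 features that averaged 10 TPM or more. The fit was tested on simulated data. Coordinates are from GENCODE (hg38) and promoters from RefSeq (GRCh38.p14). Library values were given for BRCA1, BRCA2, FANCD2, CHEK1, ATM, ATR and the lowest and highest day 5 member of each role, and the lowest and highest member of each step and gene of each other list were named, except for a gene that is not reported here. RAD51B, XRCC4, the sequences shown and the pairs were chosen after their values were seen. The members and lists were chosen with earlier results of these data known.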

Additional observations from a re-analysis of the deposited data

How the results depend on the processing

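No paired analysis was possible because the labels number the 12 libraries in 1 run, with no number shared between groups. The replicate numbers used here follow the order of deposition and pair nothing. Of the counts against untreated cells, those of lower members kept within 1.5 times of their value under every alternative run (rescaling, another filter, pseudocount of 0.1, 20 most abundant features left out, only the 2 groups compared, no variance trend, fold threshold of 1, each library left out), and the counts of higher members stayed at 0. With a filter of 5 TPM 33 of 37 members were tested. The members' median on day 2 was -1.03 rescaled and -1.54 with a pseudocount of 0.1. On day 3 it was -1.52 and -2.77, and on day 5 -1.58 and -3.33, with -2.43 at a filter of 5 TPM and -2.34 without the 20 most abundant features. Day 3 against day 2 gave 18 lower members rescaled and 14 at a fold threshold of 1, and medians of -0.48 rescaled and -1.35 with the other pseudocount. Day 5 against day 3 gave 2 lower rescaled, 15 with the pseudocount, 2 with only these groups fitted, 0 at the threshold of 1, and 4 to 10 with 1 library left out. Its count of higher members was 1 rescaled, and its median -0.093 rescaled and -0.45 with the pseudocount. The direction turned after rescaling for FANCF (0.15, 0.23 and 0.093 on days 2, 3 and 5), NBN (0.27 on day 3, 0.0062 on day 5 and 0.39 for day 3 against day 2), ATM (0.41 and 0.31 on days 3 and 5) and MRE11 (0.050 on day 3). Over all members, 9 turned after rescaling for day 3 against day 2, 3 of them called, and 6 for day 5 against day 3, 0 of them called. FANCF on day 2 also turned without the 20 most abundant features (0.031). The cause was not tested. Over the 3 comparisons with untreated cells, 20 members' calls were lost and 0 gained on rescaling, 14 were lost at the threshold of 1, 3 were lost without the 20 most abundant features, 1 was gained with the pseudocount, and 5 were lost and 4 gained over all fits with 1 library left out. Only a minimum number of read pairs per library was recorded, and no counts were given. Levels under 1 TPM therefore carry a counting error that could not be computed.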
